A study of Danio rerio with 6 samples.

Results

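The 6 genes ncapd2, ncapd3, ncapg, ncapg2, ncaph and ncaph2, which encode the non-SMC subunits of condensin, were examined in zebrafish Müller glia (MG). The study listed them together as ncap genes, among those it reported as induced by injury and regulated by mycb and mych. Each was found by its Ensembl identifier among the 23510 genes of the count table. All 6 had at least 22 counts in every library and passed the filter on low counts, which left 20329 genes for testing. Because the study drew up that list from these same libraries, it favoured genes that changed with injury and with the mutation. The direction of their changes, the number called and their standing beside all genes tested are thus not independent evidence.

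Condensin is a ring-shaped ATPase complex that compacts and stiffens chromosomes so that sister chromatids can be resolved and pulled apart in mitosis. Its core is a heterodimer of the SMC proteins Smc2 and Smc4. Condensin I joins this core to Ncapd2, Ncapg and Ncaph and reaches chromosomes after the nuclear envelope breaks down, whereas condensin II joins the same core to Ncapd3, Ncapg2 and Ncaph2 and sits in the nucleus already in interphase. Ncaph and Ncaph2 are the kleisins that close the ring, and the D and G subunits are HEAT-repeat proteins bound to them. In the zebrafish retina, resting MG seldom divide, and after injury they re-enter the cell cycle and give rise to progenitors that regenerate neurons.

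The 6 libraries were prepared from polyA RNA of GFP+ cells that were purified by FACS from retinas of adult gfap:GFP fish, with 2 libraries per group. In the first group, the fish were homozygous for a germline frameshift deletion in mycb (mycb-/-, here mycb mutant), and the retinas were collected 2 days after needle poke injury (2 dpi). The second group was Wt at 2 dpi, and the third was uninjured Wt. All groups carried the gfap:GFP transgene, in which a glial promoter drives GFP in resting MG and also in activated MG and the progenitors they produce. The mutant is 1 deletion allele, and cells of several retinas went into a sort. Uninjured mycb mutant MG were not analysed here, so a difference between mutant and Wt that existed before the injury and one that arose after it cannot be told apart. The study's general statistics methods describe measurements as coming from distinct samples, but its RNAseq methods do not say for each library which fish it came from, and the p-values measure the spread between these libraries.

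The libraries held 47088844 to 64353562 counts, and no 2 replicates agreed within counting noise (the chi-square between replicates, per gene, was 122.2 in mycb mutant 2 dpi, 48.58 in Wt 2 dpi and 109 in uninjured Wt). The first principal component, with 46.9% of the variance, separated uninjured Wt from the injured groups, and the second, with 23.1%, placed both mycb mutant libraries apart from the other 4. The identity of the mycb gene itself was not settled, since the name table gives MYC to 2 identifiers and does not say which is mycb. Levels are given in CPM, counts per 1000000 counts of a library total scaled by its TMM factor. Of the 2 identifiers, ENSDARG00000007241 had 127 and 127 CPM in mycb mutant 2 dpi. It had 205 and 157 CPM in Wt 2 dpi and 235 and 139 CPM in uninjured Wt. The other, ENSDARG00000045695, had 83.9 and 71.2 CPM in mycb mutant 2 dpi. It had 33.8 and 32.8 CPM in Wt 2 dpi and 32.3 and 35.8 CPM in uninjured Wt. Neither value checks the genotype, since a frameshift need not lower the RNA.

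The summed level of MG marker genes differed between the groups. The summed level of the 4 MG markers with an identifier, out of 7 listed (gfap, rlbp1a, apoeb and cahz), was 2849 and 3868 CPM in mycb mutant 2 dpi, 13223 and 12274 CPM in Wt 2 dpi and 4982 and 4038 CPM in uninjured Wt. All 4 were present in every library, and all 4 fell in the mutant relative to Wt at 2 dpi, with log2 fold changes of -1.98 to -1.67. By the rule for calls given below, all 4 were called lower, where 12.2% of all genes tested were. Between Wt 2 dpi and uninjured Wt the markers did not move together. With injury gfap rose by 2.12 and apoeb, which makes up most of the sum, by 2.09, whereas rlbp1a had a log2 fold change of -0.11 (adjusted p = 0.67 by edgeR) and cahz of 0.52 (adjusted p = 0.16 by edgeR). Cone genes, which mark another cell type, summed to 65415 and 60642 CPM in mycb mutant 2 dpi, 22535 and 25624 CPM in Wt 2 dpi and 36957 and 53760 CPM in uninjured Wt. In RNA from a cell population, fewer cells of a type and less RNA per cell cannot be told apart.

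The levels of the condensin genes followed a single order in all 6 cases. Both Wt 2 dpi libraries were highest, both mycb mutant 2 dpi libraries lay between, and both uninjured Wt libraries were lowest. Among all genes tested, 36.3% had both mycb mutant libraries below both Wt 2 dpi libraries, 32.6% had both mycb mutant libraries above both uninjured ones, and 35.2% had both Wt 2 dpi libraries above both uninjured ones. Values are TMM-scaled CPM, which are not corrected for gene length, so they compare a gene between libraries and not the 6 genes with each other.

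Ncapd2, the HEAT-repeat D subunit of condensin I, is recruited with the complex to mitotic chromosome arms. Its gene ncapd2 had 30.6 and 23.7 CPM in mycb mutant 2 dpi, 92.6 and 96.7 CPM in Wt 2 dpi and 2.26 and 1.64 CPM in uninjured Wt. The lowest Wt 2 dpi library was thus far above both mutant libraries, and the uninjured libraries held only 134 and 89 counts. Its condensin II counterpart ncapd3 had 19.4 and 11.8 CPM in mycb mutant 2 dpi, 44.4 and 40.2 CPM in Wt 2 dpi and 1.25 and 0.718 CPM in uninjured Wt. The 2 mutant libraries were further apart for ncapd3 than for any other condensin gene, with replicate 1 at 1.65 times replicate 2.

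The G subunits are also HEAT-repeat proteins, and they help the kleisin to hold DNA. The condensin I gene ncapg had 33.9 and 24.9 CPM in mycb mutant 2 dpi, 76.8 and 74.9 CPM in Wt 2 dpi and 1.73 and 2.23 CPM in uninjured Wt. The condensin II gene ncapg2 had 9.91 and 7.70 CPM in mycb mutant 2 dpi, 27.5 and 26.9 CPM in Wt 2 dpi and 0.488 and 0.478 CPM in uninjured Wt. For both G subunit genes the Wt 2 dpi replicates nearly coincided and the mutant replicates did not, and ncapg2 in uninjured Wt rested on 29 and 26 counts.

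The kleisin gene of condensin I, ncaph, had 15.8 and 11.4 CPM in mycb mutant 2 dpi, 32.6 and 35.4 CPM in Wt 2 dpi and 0.371 and 1.20 CPM in uninjured Wt. The uninjured values came from 22 and 65 counts, so that replicate 1 was at 0.31 times replicate 2, the widest gap between replicates among the 6 genes. The kleisin gene of condensin II, ncaph2, had 13.7 and 11.2 CPM in mycb mutant 2 dpi, 32.5 and 40.1 CPM in Wt 2 dpi and 0.825 and 1.45 CPM in uninjured Wt. Mutant replicate 1 was above mutant replicate 2 for each of the 6 genes, by 1.23 to 1.65 times, whereas Wt 2 dpi replicate 1 was at 0.81 to 1.11 times replicate 2 with no shared direction.

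**Figure D1:**
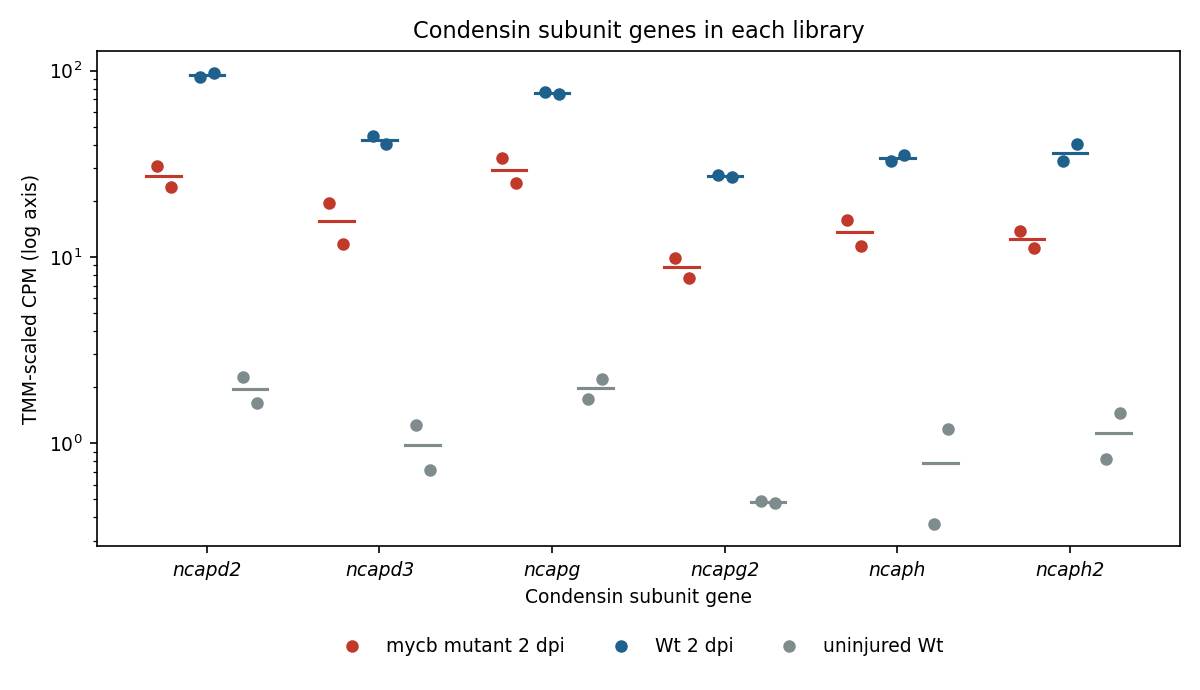
TMM-scaled CPM (log axis) of the 6 condensin genes, with a point per library, replicate 1 on the left, and a bar at the mean of the 2 libraries, for mycb mutant 2 dpi, Wt 2 dpi and uninjured Wt. For every gene the 2 mutant points sit below both Wt 2 dpi points and above both uninjured points, as for ncapd2 with means of 27.2 CPM in mycb mutant 2 dpi, 94.6 CPM in Wt 2 dpi and 1.95 CPM in uninjured Wt.

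To ask whether injury raised condensin expression in Wt MG, Wt 2 dpi was compared with uninjured Wt in a quasi-likelihood fit by edgeR, with p-values adjusted over all genes tested after Benjamini and Hochberg. A gene was called at an adjusted p of at most 0.05 and an absolute log2 fold change above 0.5. All 6 condensin genes rose, where 19.2% of all genes tested were called higher. The largest difference was that of ncapg2, which averaged 27.2 ± 0.42 CPM at 2 dpi and 0.483 ± 0.0070 CPM without injury (SD, n = 2 each), a log2 fold change of 5.80 (SE 0.30, adjusted p = 1.98e-06 by edgeR) or 55.9-fold. The smallest was that of ncaph2, which averaged 36.3 ± 5.39 CPM at 2 dpi and 1.14 ± 0.44 CPM without injury (SD, n = 2 each), a log2 fold change of 4.997 (SE 0.33, adjusted p = 7.68e-06 by edgeR) or 31.9-fold.

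The other 4 lay between these values. On the log2 scale ncapd2 rose by 5.60, ncaph by 5.45, ncapd3 by 5.42 and ncapg by 5.26, with an edgeR adjusted p of at most 3.33e-05 for ncaph, the least certain of the 6. The 95% intervals of all 6 log2 fold changes overlapped, from 4.26 to 5.73 for ncaph2 and from 5.14 to 6.47 for ncapg2, and each gene had a log2 fold change above that of at least 96.5% of the genes tested. The median log2 fold change was 5.43 over the condensin genes and -0.00070 over all genes tested. The fold change of ncaph depended most on a single library. Without uninjured Wt replicate 1, where it had 22 counts, its log2 fold change was 4.83, and without uninjured Wt replicate 2 it was 6.54, which moves the fold by more than 1.5 times either way but keeps the call.

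To ask how the mycb mutation bore on this response, mycb mutant 2 dpi was compared with Wt 2 dpi, which shares the Wt 2 dpi libraries with the comparison above. All 6 condensin genes fell, where 12.2% of all genes tested were called lower. The condensin I gene ncapd2 showed the largest difference, with 27.2 ± 4.91 CPM in the mutant and 94.6 ± 2.92 CPM in Wt (SD, n = 2 each), a log2 fold change of -1.80 (SE 0.21, adjusted p = 0.0011 by edgeR). Its mutant level was 28.7% of that in Wt. The kleisin gene ncaph showed the smallest, with 13.6 ± 3.08 CPM in the mutant and 34.0 ± 2.01 CPM in Wt (SD, n = 2 each), a log2 fold change of -1.32 (SE 0.37, adjusted p = 0.033 by edgeR), and its mutant level was 40.0% of that in Wt.

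Of the condensin II genes, ncapg2 fell by 1.62 on the log2 scale (SE 0.24), ncaph2 by 1.55 (SE 0.28) and ncapd3 by 1.44 (SE 0.30). The condensin I gene ncapg fell by 1.37 (SE 0.21). The edgeR adjusted p-values of these 4 genes lay between 0.0020 for ncapg2 and 0.0084 for ncapd3. The intervals of the 6 differences overlapped widely, from -2.27 to -1.33 for ncapd2 and from -2.16 to -0.48 for ncaph, so no order among the 6 is resolved by 2 libraries a group. The median log2 fold change was -1.49 over the condensin genes and -0.13 over all genes tested.

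For 4 of the 6 genes the call held in every setting tried, and it was lost for ncapd3 without mycb mutant replicate 2 (log2 fold change -0.97, adjusted p = 0.068 by edgeR). For ncaph it was lost in 6 settings, among them the removal of either Wt 2 dpi or either mycb mutant library, with a log2 fold change between -1.57 and -0.95 and an adjusted p up to 0.22 by edgeR.

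In both mutant libraries each condensin gene was far above its level in uninjured Wt. In mycb mutant 2 dpi against uninjured Wt all 6 genes rose, where 12.2% of all genes tested were called higher. The log2 fold change ran from 3.45 (SE 0.31, adjusted p = 0.00010 by edgeR) for ncaph2, a 10.9-fold difference, to 4.18 (SE 0.28, adjusted p = 2.28e-05 by edgeR) for ncapg2, an 18.1-fold difference. Single uninjured libraries moved some of these folds by more than 1.5 times without ending a call. Without uninjured Wt replicate 2 the log2 fold change was 4.08 for ncaph2 and 5.36 for ncaph, and without uninjured Wt replicate 1 it was 3.51 for ncaph, against 4.13 for ncaph with all libraries. With the uninjured mean subtracted from both, the mutant mean was 27.2% of the Wt 2 dpi mean for ncapd2, 31.2% for ncapg2, 32.1% for ncaph2, 35.3% for ncapd3, 37.1% for ncapg and 38.6% for ncaph. The 6 genes together summed to 123 and 90.7 CPM in mycb mutant 2 dpi, 306 and 314 CPM in Wt 2 dpi and 6.92 and 7.71 CPM in uninjured Wt.

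**Figure D2:**
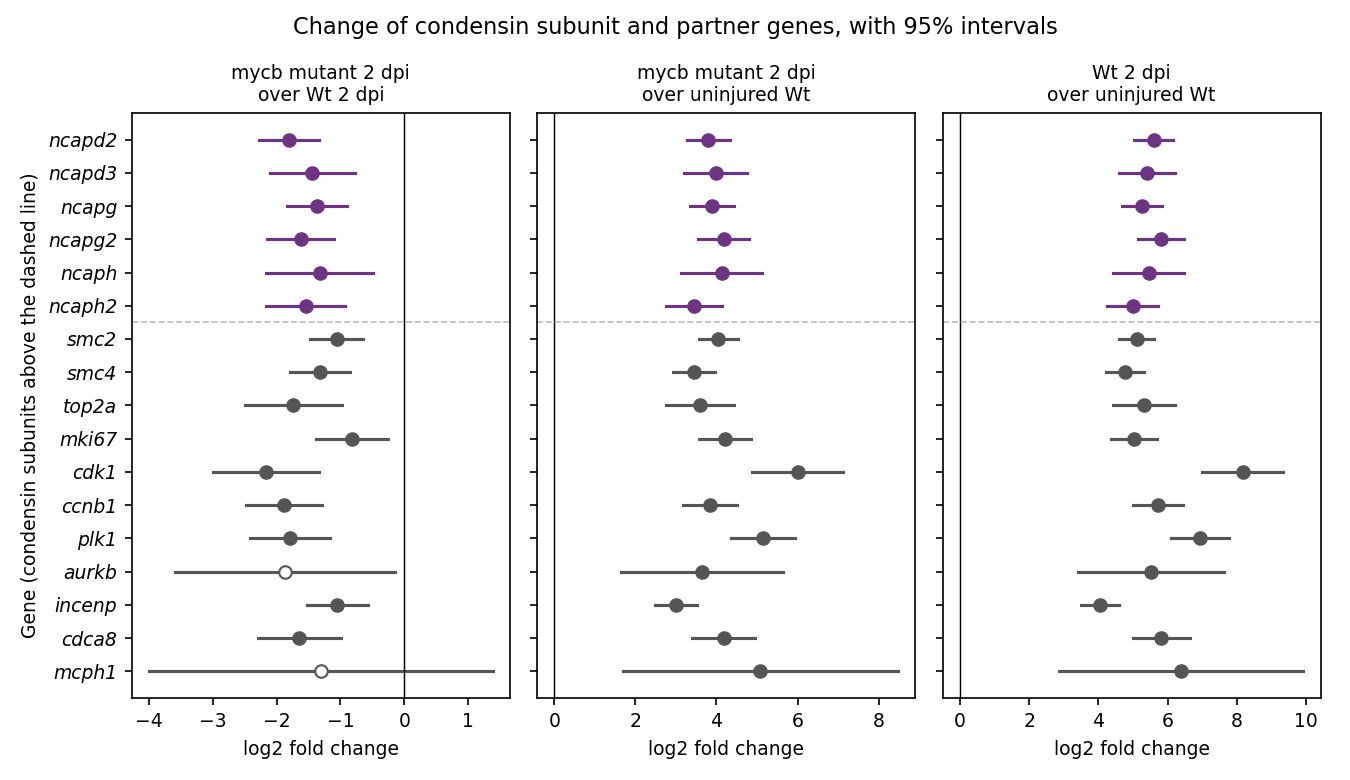
Log2 fold change (x axis) with its 95% interval for the 6 condensin genes, above the dashed line, and 11 genes that work with condensin, below it, in mycb mutant 2 dpi over Wt 2 dpi, mycb mutant 2 dpi over uninjured Wt and Wt 2 dpi over uninjured Wt. Filled points were called. The condensin genes lie between -1.80 and -1.32 in the left panel and between 4.997 and 5.80 in the right one, and the open points at the left are aurkb and mcph1.

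In the mutant the MG markers fell beside the condensin genes. The condensin sum was set against the MG marker sum of the same library, a ratio that does not depend on the scaling and was added after seeing the data. The log2 ratio was -4.53 and -5.41 in mycb mutant 2 dpi, -5.43 and -5.29 in Wt 2 dpi and -9.49 and -9.03 in uninjured Wt. The mutant and Wt 2 dpi libraries overlapped on this measure, with a mean difference of 0.39 and an SD between replicates of 0.63 in the mutant and 0.10 in Wt. Against each marker alone the mean difference between mutant and Wt 2 dpi was 0.12 for rlbp1a, 0.39 for gfap, 0.41 for apoeb and 0.49 for cahz, so the mean ratio was not lower in the mutant against any of the 4, although the libraries of both groups overlapped against rlbp1a, gfap, apoeb and cahz. Both injured groups stayed above uninjured Wt on the same ratio, by 4.29 for the mutant and 3.90 for Wt. With 2 libraries against 2 the exact permutation test cannot give a p below 0.333.

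Other markers moved with the same contrast. All 10 cone genes with an identifier were called higher in the mutant than in Wt at 2 dpi, where 8.21% of all genes tested were, and the cone sum made up 6.56% and 5.39% of all counts in mycb mutant 2 dpi, against 2.31% and 2.67% in Wt 2 dpi. The sum of 5 rod genes was 1732 and 1648 CPM in mycb mutant 2 dpi, against 321 and 197 CPM in Wt 2 dpi. In uninjured Wt this rod sum was 2058 and 3299 CPM, above both injured groups. Most of it was gnat1, which was called higher in the mutant, as were rom1a and saga, whereas sagb and nrl were not called. The sum of 6 microglia genes was 149 and 138 CPM in mycb mutant 2 dpi, against 49.4 and 71.7 CPM in Wt 2 dpi. Most of it was apoc1, and only apoc1 and lcp1 were called higher. The genes csf1ra, ptprc and cd74a were not called, nor was p2ry12, with a log2 fold change of -0.56. The part of these shares in the lower condensin values of the mutant was not tested. The ratios to the MG markers cannot test it, since gfap and apoeb themselves rose with injury, by 2.12 and 2.09 on the log2 scale. In uninjured Wt the cone genes made up 3.97% and 5.25% of all counts, a share between those of the injured groups.

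**Figure D3:**
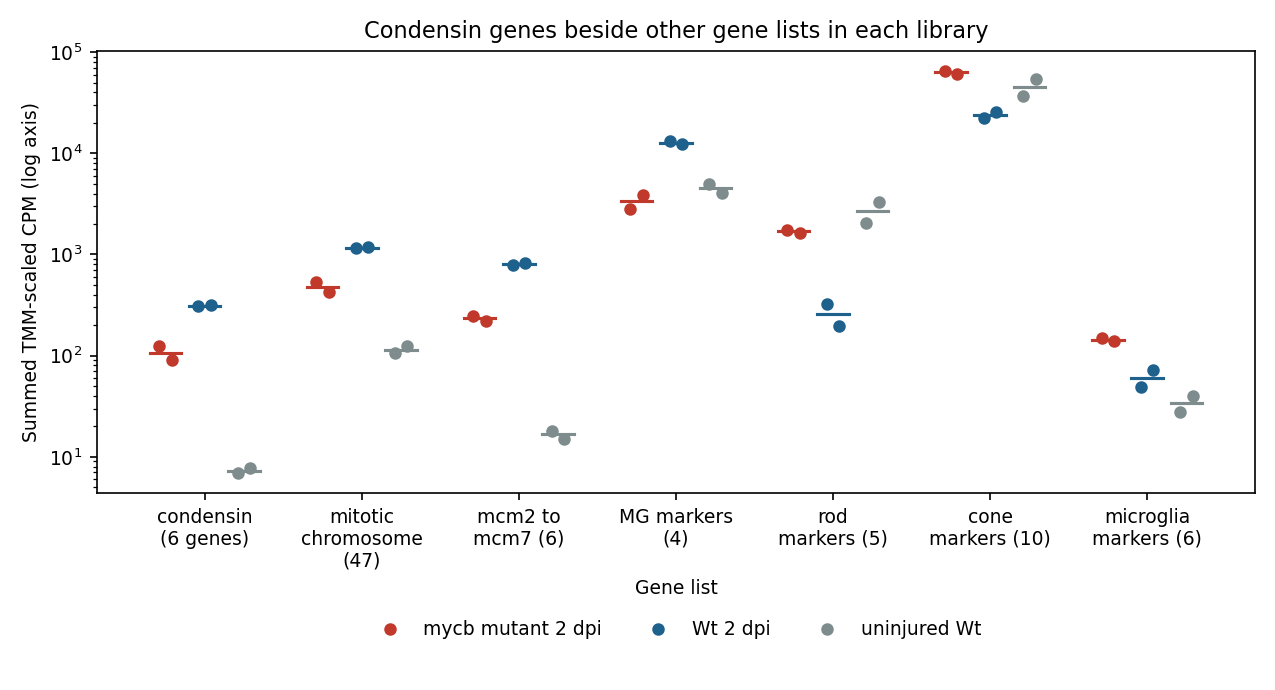
Summed TMM-scaled CPM (log axis) per library of the condensin genes, the mitotic chromosome list, mcm2 to mcm7 and the markers of MG, rods, cones and microglia, with a bar at the mean of 2 libraries. The condensin sum and the MG marker sum are both lower in mycb mutant 2 dpi than in Wt 2 dpi, as with 123 and 90.7 against 306 and 314 CPM for condensin, whereas the rod, cone and microglia sums are higher.

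The balance between the condensins was compared within each library, where scaling plays no part. The summed counts of the condensin I genes over those of the condensin II genes gave a log2 ratio of 0.90 and 0.97 in mycb mutant 2 dpi, 0.95 and 0.95 in Wt 2 dpi and 0.77 and 0.93 in uninjured Wt. The mutant libraries fell on either side of the Wt 2 dpi libraries, with a mean difference of -0.015, and the mean difference between Wt 2 dpi and uninjured Wt was 0.10, with an SD between uninjured replicates of 0.12. Counts per gene scale with transcript length, so the ratio compares libraries and does not give the proportion of the complexes.

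The single paralog ratios were less even. The log2 ratio of ncapd2 to ncapd3 was 0.66 and 1.01 in mycb mutant 2 dpi, 1.06 and 1.27 in Wt 2 dpi and 0.86 and 1.19 in uninjured Wt. The ratio of ncapg to ncapg2 was 1.78 and 1.69 in mycb mutant 2 dpi, 1.48 and 1.48 in Wt 2 dpi and 1.83 and 2.22 in uninjured Wt. It was thus lower in Wt 2 dpi than in every library of the other groups, by 0.25 in the mean against the mutant and 0.54 against uninjured Wt. The ratio of ncaph to ncaph2 was 0.20 and 0.035 in mycb mutant 2 dpi, 0.0034 and -0.18 in Wt 2 dpi and -1.16 and -0.28 in uninjured Wt, where the counts were lowest. For each paralog ratio the mutant and Wt 2 dpi libraries were apart, with ncapd2 relatively lower and ncapg and ncaph relatively higher in the mutant, but these differences were compared only by the exact permutation test, which cannot give a p below 0.333 for 2 against 2 libraries.

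**Figure D4:**
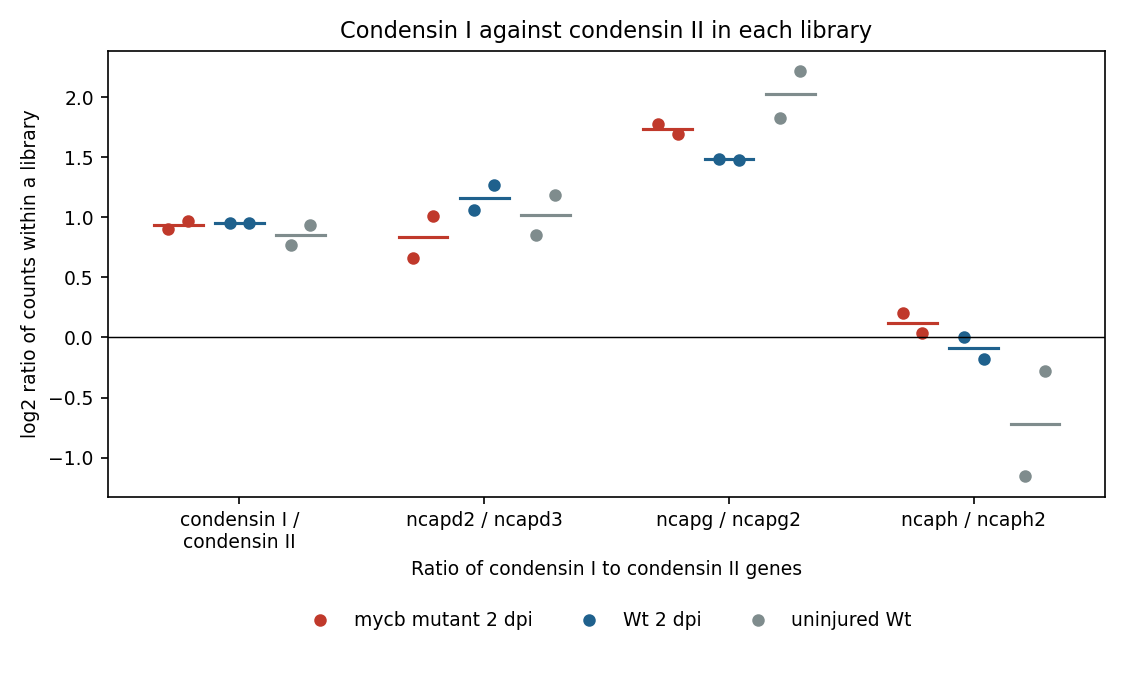
Log2 ratio of counts within a library for condensin I over condensin II and for each pair of paralogs, with a point per library and a bar at the mean of 2 libraries. The condensin I to condensin II ratio lies between 0.77 and 0.97 in all 6 libraries, while ncapg over ncapg2 is lowest in Wt 2 dpi at 1.48 in both libraries.

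The SMC core, which both condensins share, changed in the same directions. The gene smc2 had 29.7 and 26.2 CPM in mycb mutant 2 dpi, 56.0 and 60.6 CPM in Wt 2 dpi and 1.79 and 1.58 CPM in uninjured Wt. The gene smc4 had 35.8 and 27.2 CPM in mycb mutant 2 dpi, 75.4 and 82.3 CPM in Wt 2 dpi and 2.54 and 3.26 CPM in uninjured Wt. In both cases no libraries of different groups overlapped, which in each of these directions also held for 32.6% to 36.3% of all genes tested. With injury smc2 rose by 5.11 (SE 0.22) and smc4 by 4.76 (SE 0.24) on the log2 scale, and in the mutant relative to Wt at 2 dpi they fell by 1.06 (SE 0.19, adjusted p = 0.0041 by edgeR) and 1.32 (SE 0.21, adjusted p = 0.0027 by edgeR).

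Counting the SMC core, 11 of 12 listed genes that act with condensin on mitotic chromosomes had an identifier. All 11 were called higher with injury, where 19.2% of all genes tested were. In the mutant relative to Wt at 2 dpi 9 of them were called lower, where 12.2% of all genes tested were. Of the 11, cdk1, ccnb1, incenp and cdca8 were in the study's own listing and are also in the wider list below, so their calls are not independent evidence. The partner list as a whole was chosen with earlier results of these data known, so the other calls are not independent evidence either. The gene top2a, whose topoisomerase disentangles sister DNA as condensin compacts it, had 56.1 and 32.7 CPM in mycb mutant 2 dpi, 148 and 148 CPM in Wt 2 dpi and 2.31 and 5.06 CPM in uninjured Wt, and fell by 1.74 (SE 0.34). The kinase gene cdk1, whose product phosphorylates condensin at mitotic entry, had 20.3 and 11.8 CPM in mycb mutant 2 dpi, 70.2 and 74.0 CPM in Wt 2 dpi and 0.084 and 0.42 CPM in uninjured Wt, and fell by 2.16 (SE 0.37), the largest fall of the 11. Its cyclin gene ccnb1 fell by 1.88 and plk1, another mitotic kinase gene, by 1.79.

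Of the chromosomal passenger genes, cdca8, which encodes borealin, fell by 1.64 and incenp by 1.05, whereas aurkb, the Aurora B kinase gene, had a log2 fold change of -1.87 with an adjusted p of 0.12 by edgeR. The gene mki67, whose product Ki-67 coats mitotic chromosomes, fell by 0.82 (SE 0.25, adjusted p = 0.045 by edgeR), the smallest called difference of the 11. The gene mcph1, whose product restrains condensin II in interphase in human and mouse cells, had 0.826 and 0.497 CPM in mycb mutant 2 dpi, 2.29 and 0.993 CPM in Wt 2 dpi and 0.034 and 0 CPM in uninjured Wt. The Wt 2 dpi replicates, with 151 and 57 counts, were 2.31 times apart, and its log2 fold change of -1.31 in the mutant relative to Wt at 2 dpi was not called (adjusted p = 0.50 by edgeR), with a 95% interval from -3.99 to 1.38.

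A wider list of 47 kinetochore, centromere and mitotic genes gave the setting for the condensin genes. It was drawn from the study's listing of genes reported as induced by injury and regulated by mycb and mych. Its directions and numbers of calls are not independent evidence either. With injury 46 of the 47 were called higher, where 19.2% of all genes tested were, and mzt2b was not called. The median log2 fold change of the list was 4.97 against 5.43 for the condensin genes. In the mutant relative to Wt at 2 dpi 30 of the 47 were called lower, where 12.2% of all genes tested were. None was called higher and 17 were not called, with a median of -1.42 against -1.49 for the condensin genes. Of the kinetochore genes, spc24 fell by 2.11, nuf2 by 1.83 and zwilch by 1.56, and of the spindle checkpoint genes, bub1bb fell by 1.43 and bub1 by 1.36. Among those not called were the kinetochore genes knl1, ska1 and zw10, with log2 fold changes of -0.96, -0.94 and -0.29, and the checkpoint gene bub3, with -0.90. Fewer of the 47 were called lower when any 1 of the injured libraries was left out. Such a fit leaves 1 library in that group, and fewer genes were then called lower over all genes tested too.

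The condensin sum over the sum of this list gave a log2 ratio of -2.11 and -2.24 in mycb mutant 2 dpi, -1.92 and -1.91 in Wt 2 dpi and -3.93 and -4.01 in uninjured Wt. The mutant libraries were thus lower than both Wt 2 dpi libraries by 0.26 in the mean, and Wt 2 dpi was above uninjured Wt by 2.05. When each gene had equal weight, as the mean log2 CPM over each list, the difference between Wt 2 dpi and uninjured Wt was 0.64. In the sum, genes of the list that changed little with injury weigh by their counts, as did sugt1, zw10 and mzt2b, with log2 fold changes of 1.17, 0.94 and 0.28 with injury.

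Cohesin, the related SMC complex that holds sister chromatids together, was covered by only 5 of 16 listed genes with an identifier. The core subunit gene smc3 had 136 and 118 CPM in mycb mutant 2 dpi, 151 and 145 CPM in Wt 2 dpi and 133 and 127 CPM in uninjured Wt, with a log2 fold change of 0.18 with injury (adjusted p = 0.43 by edgeR, SE 0.16). Its level without injury thus lay close to that at 2 dpi. The kleisin gene rad21a rose with injury by 0.89 (SE 0.17). The regulator genes pds5a and pds5b were not called in any of the 3 comparisons. Only esco2, whose acetyltransferase establishes cohesion in S phase, changed on the scale of the condensin genes, with 11.1 and 12.9 CPM in mycb mutant 2 dpi, 38.2 and 39.4 CPM in Wt 2 dpi and 1.36 and 2.32 CPM in uninjured Wt. It rose with injury by 4.40 (SE 0.30) and fell by 1.69 (SE 0.26) in the mutant relative to Wt at 2 dpi.

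The 6 condensin genes varied alike over the 6 libraries, with a Pearson r between any 2 of them from 0.957 to 0.998 on log2 CPM. This is a description over 6 points that fall into 3 groups. The 5 named genes most like the condensin mean by this measure were smc4 (r = 0.9997), SUV39H1 (0.9994), incenp (0.9992), NRP2 (0.9992) and tacc3 (0.9992), written as in the name table. Such values were common, since 1300 of the other 20323 genes tested had an r of at least 0.95 and 191 at least 0.99. The gene tacc3, which encodes a spindle protein, had 21.4 and 16.9 CPM in mycb mutant 2 dpi, 62.1 and 60.3 CPM in Wt 2 dpi and 0.488 and 0.626 CPM in uninjured Wt, which places it in the same order as the condensin genes. NRP2, a neuropilin receptor gene, had 58.3 and 48.1 CPM in mycb mutant 2 dpi, 100 and 103 CPM in Wt 2 dpi and 10.9 and 13.3 CPM in uninjured Wt, also in that order but with a smaller gap to the uninjured libraries.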

How the data were processed

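RNAseq of FACS-purified GFP+ MG was analysed in 6 libraries. The authors report mapping reads to the zebrafish genome (GRCz11) and deposited raw counts per gene, without normalization. The submitters' notes also name the human build GRCh38, whereas the gene identifiers of the count table are zebrafish ones. The submitters' processing notes name cutadapt 2.3, FastQC 0.11.8, STAR 2.7.8a, RSEM 1.3.3 and DESeq2, so the whole-number counts may be rounded RSEM estimates. Strand setting and annotation release are not given in the sources used here. Groups followed sample titles, since the treatment label of Wt 2 dpi reads none.

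Counts were filtered with filterByExpr (minimum count 10), given TMM factors and tested by quasi-likelihood in edgeR 4.0.16 (R 4.3.3), all 6 libraries being fitted together (3 residual degrees of freedom). Called genes had a Benjamini-Hochberg adjusted p of at most 0.05 and an absolute log2 fold change above 0.5. The study's FPKM threshold was left out because gene lengths were not used here. The code was tested on simulated data for the mutant against Wt comparison. All simulated libraries started from the levels of uninjured Wt, so the shares called need not hold at the levels of the injured groups. The code called 57.1% of genes set to a log2 change of -2 and 4% of those set to -1. For changes of 2 and 1 it called 66% and 12%. A gene that was not called is thus not shown to be unchanged.

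The members and lists were chosen with earlier results of these data known. Named genes were the members, listed partners, the 5 genes most like the members, and examples from the mitotic chromosome list chosen after their values were seen. Names came from the study's gene tables and a name table, for 21987 of 23510 identifiers. Alternatives were RLE, upper quartile and library size scaling, TMM without photoreceptor genes, other filters, DESeq2 1.42.0, other call rules, the compared groups alone, a replicate block and each library left out.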

Additional observations from a re-analysis of the deposited data

How the results depend on the processing

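All 6 condensin genes were called higher with injury, and higher in mycb mutant 2 dpi than in uninjured Wt, in every setting tried. In the mutant against Wt at 2 dpi, all 6 kept their direction in every setting. The call of ncaph was lost with upper quartile factors (adjusted p = 0.053 by edgeR), with glmTreat against 0.5 (0.099), and in 4 leave-one-out fits, and that of ncapd3 in 1. The mitotic chromosome list kept 19 lower calls with glmTreat against 0.5, and 11 to 36 when a library was left out, below 30 without any 1 of the injured libraries and above it without either uninjured one. Scaling moved the median log2 fold change of all genes in the mutant comparison, which was -0.13 with TMM, -0.25 with library size only and 0 with upper quartile factors. The share of calls that were higher was 40.2%, 28.2% and 52.0% with the same 3 scalings. Relative to that median the condensin median was -1.37 with TMM, -1.35 with library size only and -1.36 with upper quartile factors.

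The mean of the 3 paralog log2 ratios differed by 0.043 between mutant and Wt 2 dpi. With equal weight per gene, the condensin to mitotic list difference was 0.64 with injury and -0.17 in the mutant. The cause was not tested. Same-numbered libraries did not deviate together (r = -0.044, 0.018 and -0.0075), and with a replicate block all 6 condensin genes were still called in each comparison, with 31 lower calls in the mitotic list. With 2 libraries a group, spread between replicates limits the precision in every group, with a chi-square per gene of 109 in uninjured Wt too. The condensin genes had only 22 to 134 counts in uninjured Wt, so counting noise adds to that spread there.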

Other observations

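The replicative helicase genes mcm2 to mcm7, looked at after seeing the data, also fell in mycb mutant 2 dpi relative to Wt 2 dpi, with edgeR log2 fold changes from -2.25 for mcm5 to -1.54 for mcm6 and a median of -1.77 against -1.49 for the condensin genes. The mcm genes came from the study's same listing of genes reported as regulated by mycb and mych, so their fall is not independent evidence. Their sum was 244 and 222 CPM in mycb mutant 2 dpi, 796 and 815 CPM in Wt 2 dpi and 18.1 and 15.1 CPM in uninjured Wt. The condensin sum over the mcm2 to mcm7 sum gave a log2 ratio of -0.98 and -1.29 in mycb mutant 2 dpi, -1.38 and -1.38 in Wt 2 dpi and -1.39 and -0.97 in uninjured Wt. Both mutant libraries were above both Wt 2 dpi libraries on this ratio, with a mean difference of 0.24 against an SD between mutant replicates of 0.22, and the uninjured libraries spanned the range of both groups.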
